A study of Mus musculus with 6 samples.

Results

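The 3 loci described here are stretches of the last exons of Wdfy3, Cdc42ep3 and Fzd3 that gave rise to small RNAs of piRNA length in mouse round spermatids. They were chosen by readout. Of the 100 kb windows of the genome with at least 300 counts, these 3 had the lowest level in Miwi knockout (KO) relative to wild-type (WT) libraries. Every difference between the genotypes at these loci is therefore given as a description, without a test. The 3 loci hold 3 of the 773 named piRNA clusters of the deposited table and 30840 of its 19609882 counts. The loci list 5760 different places, a place being 1 position, strand and length, and 1898 of these had a count in any library.

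The samples were small RNA libraries of round spermatids, the haploid male germ cells just after meiosis, purified from the testes of mice on a C57BL/6 background at postnatal day 21. There were 3 libraries from Miwi KO mice, a global knockout line, and 3 from WT mice, with no treatment of either group stated for the spermatids. The mirVana procedure was used to extract the RNA, and the Ion Total RNA-Seq Kit v2 to build the libraries. The piRNA table held 1009902 to 1785660 counts per KO library and 4059156 to 6623310 per WT library, and mature miRNA counts of the same libraries were 146487 to 243655 in KO and 179761 to 246030 in WT. Levels are given per 10000 mature miRNA counts of the same library, so a level is a ratio to the miRNAs and would also move if these moved. The labels do not say that each library came from a separate mouse, and small RNA tables do not show the Miwi mRNA, so the genotype was taken from the labels. In such bulk libraries, fewer cells of a type and less RNA per cell cannot be told apart.

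Piwi-interacting RNAs (piRNAs) are small RNAs of germ cells that guide PIWI proteins to matching transcripts. They are cut from long single-stranded precursors, usually begin with U, and are trimmed at the 3′ end to a length set by the PIWI protein that holds them. In the mouse testis MILI holds shorter and MIWI, the product of the Miwi gene (Piwil1), longer piRNAs. Most pachytene piRNAs come from long intergenic precursors, and a smaller class comes from the exons of protein-coding mRNAs, most often from 3′ untranslated regions (UTRs). Lengths of 25-28 nt and 29-32 nt are used below as the classes usual for MILI and MIWI, although the PIWI protein that held each RNA was not measured.

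Wdfy3 (ENSMUSG00000043940.15) encodes ALFY, a large scaffold protein of selective autophagy. In GRCm38 it lies on the minus strand at chr5:101832956-102069921 and has 67 exons. Its small RNAs lay in the last exon, at chr5:101832956-101836281. Cdc42ep3 (ENSMUSG00000036533.9) encodes an effector of the small GTPase CDC42. It lies on the minus strand at chr17:79333727-79355091, has 2 exons, and the last one (chr17:79333727-79335716) holds the end of the 5′ UTR, the coding sequence and the 3′ UTR. Fzd3 (ENSMUSG00000007989.7) encodes a Frizzled receptor of Wnt ligands that acts in planar cell polarity. It lies on the minus strand at chr14:65192449-65262463, has 7 exons, and its last exon spans chr14:65192449-65202932.

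The sequences of 5 RNAs are given as examples of what was lost. They are the RNAs of at most 30 nt at the leading 5′ end of each locus, with another strong 5′ end of Wdfy3 and of Cdc42ep3 that had no KO count. All are read 5′ to 3′ from the GENCODE M21 transcripts (GRCm38, minus strand), and the capital marks the first base, which as RNA is U where T is written. Within 2 mismatches, each matched transcripts of its host gene alone. Only annotated transcripts were searched, and matches elsewhere in the genome were not looked for.
Wdfy3 RNA 1, chr5:101833690-101833719, 3′ UTR: Tccttaccaatatacactatgtatatacct
Wdfy3 RNA 2, chr5:101835654-101835683, 3′ UTR: Cactaactcaatgaaccatctaaggtctgt
Cdc42ep3 RNA 1, chr17:79335622-79335651, 5′ UTR: Tgcgctgagcaagatctccaagaccctgtc
Cdc42ep3 RNA 2, chr17:79335051-79335079, coding: Tcctaagttgccaaggctcagctgtgagc
Fzd3 RNA, chr14:65196552-65196580, 3′ UTR: Tagaattctcttgtaaattaatgacgctt
Summed over the 3 libraries of a genotype, Wdfy3 RNA 1 had 801 counts in WT and 5 in KO, and Wdfy3 RNA 2 had 381 and 0. Cdc42ep3 RNA 1 had 453 in WT and 5 in KO, and Cdc42ep3 RNA 2 had 32 and 0. The Fzd3 RNA had 1438 in WT and 6 in KO, the most WT counts of the 5 forms shown. Longer forms at the 5′ end of Wdfy3 RNA 1, not shown, had more, with 3115 WT counts at 31 nt and 2772 at 32 nt. Of the 5 RNAs shown, 4 begin with U and Wdfy3 RNA 2 begins with C.

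Small RNAs of the Wdfy3 locus were abundant in all WT libraries and close to absent in all KO libraries. The locus had 7479, 7798 and 10039 counts in WT replicates 1 to 3 and 65, 37 and 69 in KO replicates 1 to 3. Per 10000 miRNA counts this was 416, 398 and 408 in WT (407 ± 9.15, mean ± SD, n = 3) and 2.77, 2.53 and 2.83 in KO (2.71 ± 0.162, n = 3). The WT level was 150.4 times the KO level, a log2 KO over WT ratio of -7.23, and the genotypes did not overlap. Within each genotype the 3 libraries lay close together.

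The Cdc42ep3 locus had 989, 950 and 1744 counts in WT and 24, 16 and 33 in KO. Per 10000 miRNA counts it reached 55.0, 48.5 and 70.9 in WT (58.1 ± 11.5, n = 3) and 1.02, 1.09 and 1.35 in KO (1.16 ± 0.175, n = 3), a 50.3-fold difference (log2 ratio -5.65). Replicate 3 was the highest library in each genotype, and the lowest WT library was still far above the highest KO library.

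The Fzd3 locus was the weakest of the loci, with 443, 528 and 559 counts in WT against 27, 8 and 32 in KO. Its levels were 24.6, 26.9 and 22.7 per 10000 miRNA counts in WT (24.8 ± 2.11, n = 3) and 1.15, 0.546 and 1.31 in KO (1.00 ± 0.404, n = 3), a 24.7-fold difference (log2 ratio -4.63). The genotypes did not overlap here either, but the KO values rest on few counts and varied more. Scaled to the totals of the piRNA table, which are themselves lower in KO, the log2 ratios were -5.52 at Wdfy3, -3.92 at Cdc42ep3 and -2.94 at Fzd3.

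**Figure D1:**
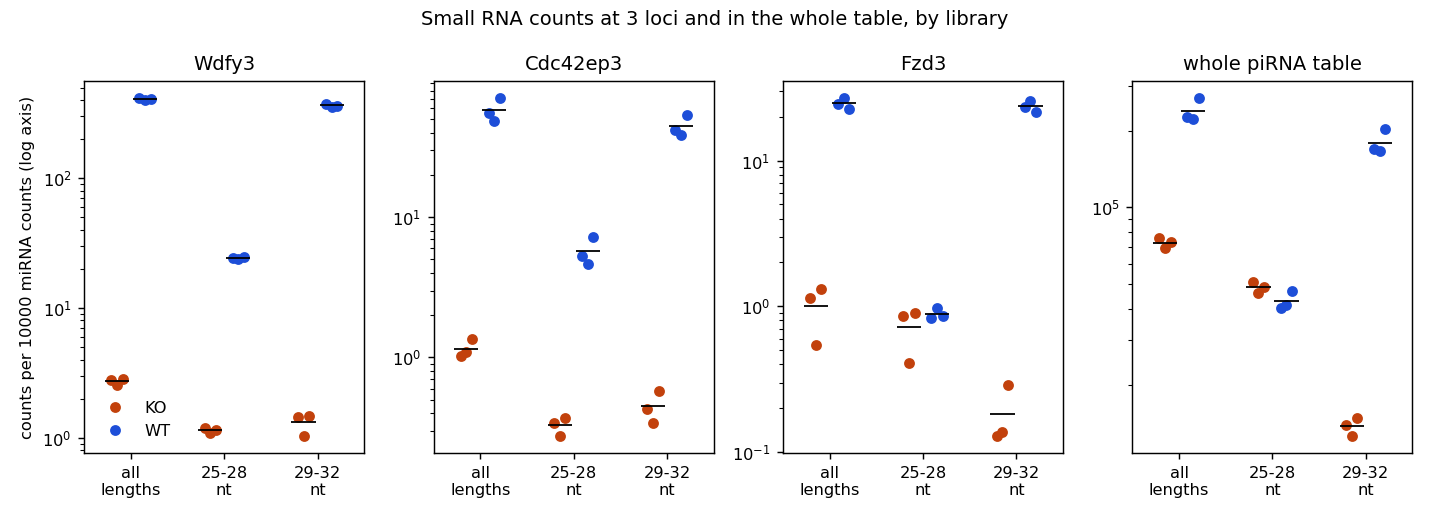
Counts per 10000 miRNA counts (log axis, a scale of its own in each panel) of the 3 loci and of the whole piRNA table, for all lengths, 25-28 nt and 29-32 nt. Points are libraries (KO orange, WT blue) and lines are means of 3; Wdfy3 and Cdc42ep3 are lower in KO in each class shown, while 25-28 nt counts overlap at Fzd3 and in the whole table.

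The whole piRNA table was also lower in KO, by a smaller factor. Its WT level was 3.30 times the KO level (239138 ± 26096 against 72575 ± 3335 counts per 10000 miRNA counts, n = 3 each). Over the 500 windows of 100 kb with at least 300 counts, the median log2 ratio was -0.79 and the 5th percentile was -3.39. The next lowest window after Fzd3 (-4.63) was chr3:97100001-97200000, at -4.61, so the limit of the choice falls between nearly equal values. Wdfy3 and Cdc42ep3 lay further below that limit. By their WT level the loci ranked only 72nd (Wdfy3), 121st (Cdc42ep3) and 173rd (Fzd3) of the 500 windows. A pair of much larger clusters, the 100 kb window on chromosome 2 that holds Gm13817 and the one on chromosome 5 that holds 1700016C19Rik, had WT levels of 13771 ± 1577 and 12929 ± 1562 and were 3.80-fold and 3.14-fold lower in KO.

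**Figure D2:**
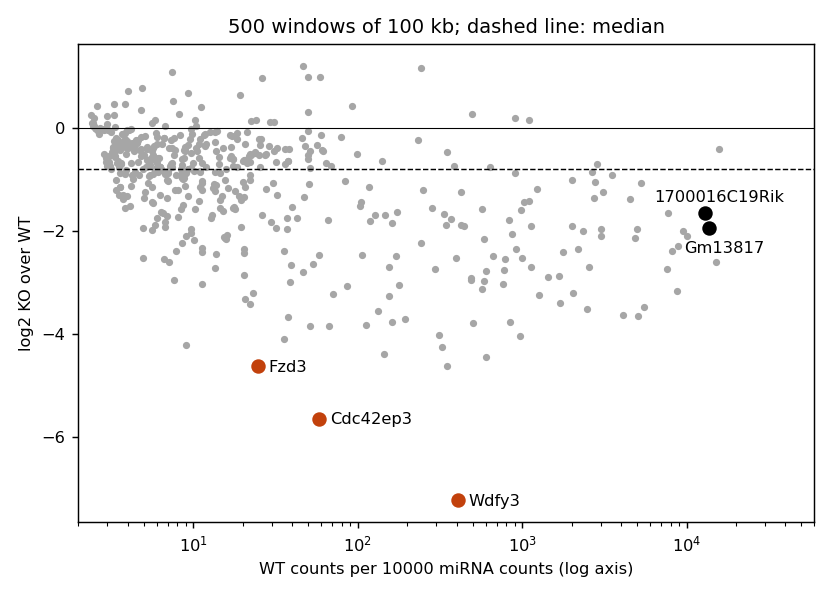
Each point is a window of 100 kb, by its WT level (log axis) and its log2 KO over WT ratio after scaling to miRNA counts; orange points are the 3 loci and black points the Gm13817 and 1700016C19Rik windows. The loci lie at the lower edge, at -7.23, -5.65 and -4.63, against a median of -0.79 (dashed).

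Falls were the usual call in these libraries. In an edgeR quasi-likelihood fit of the whole table with miRNA totals as library sizes, 66.3% of the 750 windows tested were called lower in KO and 2.53% higher at a Benjamini-Hochberg adjusted p of 0.05. The windows of all 3 loci were among those called lower. In the same fit of single places, 73.9% of 69111 places tested were called lower in KO and 14.9% higher. Only 86 of the 1898 places with counts at the loci passed the filter on low counts (74 of Wdfy3, 11 of Cdc42ep3 and 1 of Fzd3), and all 86 were called lower. The rule that chose the loci used this contrast, so nothing is read from these counts. With scaling to the totals of the piRNA table in place of the miRNAs, 29599 places were called lower and 27521 higher, against 51072 and 10309.

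The loci differed from one another by length class, and the whole table is given first for comparison. Its lower level in KO lay in the longer RNAs. At 29-32 nt the whole table was 13.0-fold higher in WT (179851 ± 20863 against 13800 ± 1163), whereas at 25-28 nt it stood at 42785 ± 3576 in WT and 48541 ± 2293 in KO per 10000 miRNA counts, with overlapping libraries. In the Gm13817 window the WT over KO ratio was 15.4 at 29-32 nt and 0.940 at 25-28 nt, again with overlapping libraries in the shorter class. In the 1700016C19Rik window it was 11.6 at 29-32 nt, and 25-28 nt counts were higher in KO without overlap (2836 ± 149 against 2278 ± 194, a WT over KO ratio of 0.803).

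At Wdfy3 the shorter class was lower too. Counts of 25-28 nt stood at 24.2, 23.7 and 24.5 per 10000 miRNA counts in WT (24.1 ± 0.397, n = 3) and at 1.19, 1.09 and 1.15 in KO (1.14 ± 0.0504, n = 3), a 21.1-fold difference. Counts of 29-32 nt stood at 374, 357 and 361 in WT (364 ± 8.79) and 1.45, 1.02 and 1.48 in KO (1.32 ± 0.254), a 276-fold difference. The 18-24 nt counts were 21.7-fold higher in WT, and at 33-34 nt there were 894 WT counts and 1 KO count.

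At Cdc42ep3 both piRNA classes were lower in KO as well. Its 25-28 nt counts stood at 5.28, 4.64 and 7.28 in WT and 0.341, 0.273 and 0.369 in KO, a 17.5-fold difference that rests on 21 KO counts. Its 29-32 nt counts were 100.2-fold higher in WT (44.8 ± 7.88 against 0.447 ± 0.118). Its 18-24 nt counts were 3.70-fold higher in WT, on 23 KO counts, a ratio near that of Fzd3 (3.63, on 7 KO counts). A single RNA of 21 nt at Cdc42ep3, described below, gave 18 of its 23 KO counts and 30 of its 88 WT counts of this class. No KO count of 33-34 nt was seen against 393 in WT, at least 128-fold higher in WT when the KO level is set to 3 counts over the 3 libraries. Among the 353 windows with at least 300 counts of 25-28 nt, whose median log2 ratio was -0.22, Wdfy3 was the lowest at -4.40 and Cdc42ep3 the second lowest at -4.13. Fzd3 had fewer than 300 counts of this class and was not ranked. The 300 counts were reached mainly through WT, with 1503 WT and 72 KO counts at Wdfy3 and 365 and 21 at Cdc42ep3. The rule used counts of all lengths, these among them, so nothing is read from these ranks.

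At Fzd3 the shorter class hardly differed. Counts of 25-28 nt were 15, 19 and 21 in WT and 20, 6 and 22 in KO. Their levels of 0.834, 0.969 and 0.854 in WT and 0.852, 0.410 and 0.903 in KO overlapped (0.886 ± 0.0729 and 0.722 ± 0.271). The 29-32 nt counts were 420, 504 and 529 in WT against 3, 2 and 7 in KO, a 128-fold difference. Over the 255 windows with at least 300 counts of 29-32 nt, the median log2 ratio was -3.22 and the loci stood at -8.11 (Wdfy3), -7.00 (Fzd3) and -6.65 (Cdc42ep3). The rule used counts of all lengths, and most counts of the loci were of 29-32 nt, so these values restate the choice.

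What was left in KO was shorter at each locus. The share of 29-32 nt among 25-32 nt counts was 93.8% ± 0.140 in WT and 53.2% ± 4.19 in KO at Wdfy3 (SD, n = 3 each). At Cdc42ep3 it was 88.7% ± 0.616 in WT and 57.3% ± 3.07 in KO. At Fzd3 it was 96.4% ± 0.185 in WT and 20.7% ± 6.67 in KO, and the whole table had 80.7% ± 0.581 and 22.1% ± 1.11. The KO shares come from 157, 50 and 60 counts. With 30-33 nt taken as long among 25-33 nt, the share at Fzd3 was 0.638% in WT and 3.75% in KO, since its leading RNA has 29 nt. With 29-32 nt as long, the loci held larger shares of long RNAs in WT than the table as a whole. At Fzd3 this rests on 1 RNA, and without its 5′ end the WT share was 20.2%. The loci were chosen for low KO levels, and the lower level of the whole table lay in this class, so nothing is read from these larger shares. In KO the shares of Wdfy3 and Cdc42ep3 were above, and that of Fzd3 close to, the share of the table. The most frequent WT length was 31 nt at Wdfy3 (31.2% of counts), 30 nt at Cdc42ep3 (39.0%) and 29 nt at Fzd3 (94.3%). In KO it was 29 nt at Wdfy3 (22.2%), 21 nt at Cdc42ep3 (24.7%) and 27 nt at Fzd3 (23.9%).

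**Figure D3:**
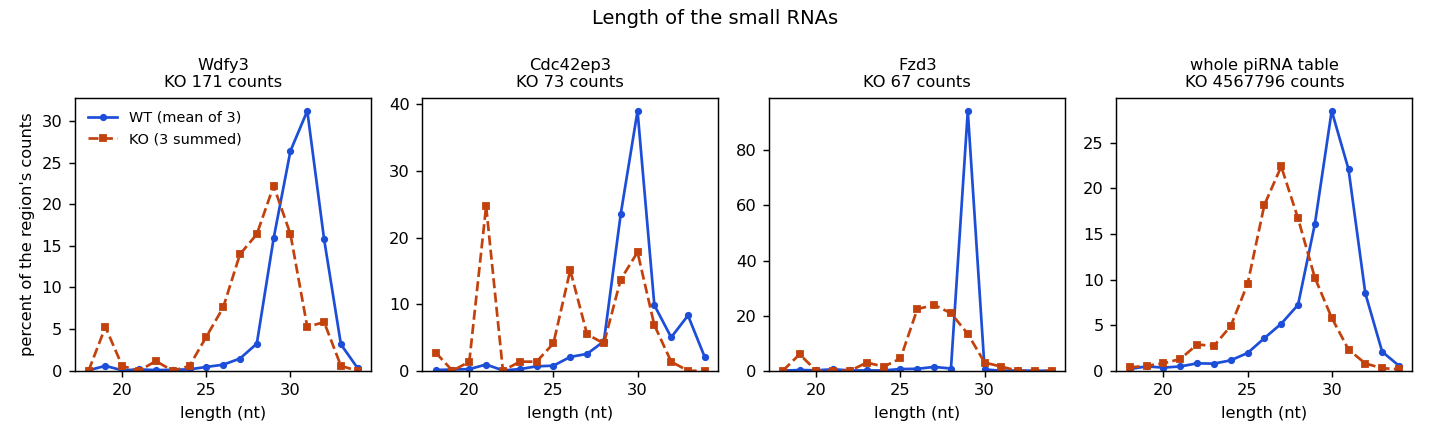
Percent of each region's counts at each length, as the mean of 3 WT libraries (blue) and the sum of 3 KO libraries (orange). The WT peak is at 31, 30 and 29 nt at the loci and the KO counts spread to shorter lengths, with a separate KO peak of 21 nt at Cdc42ep3.

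In all 3 loci the RNAs came almost wholly from the sense strand of the mRNA. The minus strand, on which the genes lie, held 99.3% of pooled WT counts at Wdfy3, 99.7% at Cdc42ep3 and 99.0% at Fzd3. In KO it held 155 of 171, 71 of 73 and 64 of 67 counts. The first base was U in 84.5% ± 2.27 of WT counts at Wdfy3, 95.3% ± 0.326 at Cdc42ep3 and 99.7% ± 0.0887 at Fzd3, whereas U made up 30.2%, 27.9% and 32.8% of the bases of these exons. In KO the first base was U in 87.9% ± 1.82, 93.8% ± 2.71 and 89.3% ± 11.1 of counts, so the remaining RNAs also began mostly with U. With each place counted once, U was first in 85.0%, 83.6% and 93.9% of WT places. The genome build was itself chosen because it put U first at these loci, so these shares are not independent of that choice. C was the second most frequent first base of WT counts at Wdfy3 (10.1%).

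The part of the mRNA that gave the RNAs differed between the loci. At Wdfy3 the 3′ UTR held 99.1% ± 0.0351 of WT counts, and the coding end of the exon held 0.172% ± 0.0260. At Fzd3 the 3′ UTR held 99.0% ± 0.313. The region counted at Fzd3 begins 2932 nt into the exon, and the stretch before it had 7 further WT counts and 0 KO counts. At Cdc42ep3 the 227 nt of 5′ UTR in the last exon held 66.8% ± 1.09 of WT counts, the coding sequence of 762 nt held 28.8% ± 1.34, and the 3′ UTR of 998 nt held 3.87% ± 0.628. Summed over WT, this was 10.8 counts per nt of 5′ UTR, 1.40 per nt of coding sequence and 0.137 per nt of 3′ UTR. The WT over KO ratio was 81.7 in the 5′ UTR, 61.9 in the coding sequence and 6.65 in the 3′ UTR. In the 3′ UTR a single RNA of 21 nt, described below, gave 18 of the 20 KO counts and 30 of the 137 WT counts.

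Within the exons the RNAs began at few sites. At Wdfy3, 5 of 656 WT 5′ ends held 50% of the counts, and at Cdc42ep3 7 of 190 did. At Fzd3 a single 5′ end held 94.1% of all WT counts. Over the 500 windows a median of 33.5 ends held 50% of WT counts and the leading end held a median of 7.0%. The leading end held 27.0% at Wdfy3 (74th highest of the windows), 18.2% at Cdc42ep3 (116th) and 94.1% at Fzd3 (6th), and 11 windows reached 90%. In the Gm13817 window 440 ends were needed for 50% of WT counts, and in the 1700016C19Rik window 220. These windows held 866693 and 813988 WT counts, against 25316, 3683 and 1530 at the loci, so these numbers of ends come from unlike depths.

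In Wdfy3 a segment of 100 nt, from 2500 to 2599 nt after the start of the exon, held 45.8% of the WT counts and the segment from 500 to 599 nt held 12.3%. The first of these had 11598 WT and 36 KO counts. The second had 3121 WT counts and 0 KO counts, at least 1031-fold higher in WT when KO is set to 3 counts over the libraries. In Cdc42ep3 the segments of 0 to 99 nt and 100 to 199 nt held 29.4% and 36.5% of WT counts and were 87.6-fold and 87.2-fold higher in WT. The segments were laid out after the data were seen, and those named were picked for their WT level, which by itself raises the ratio.

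**Figure D4:**
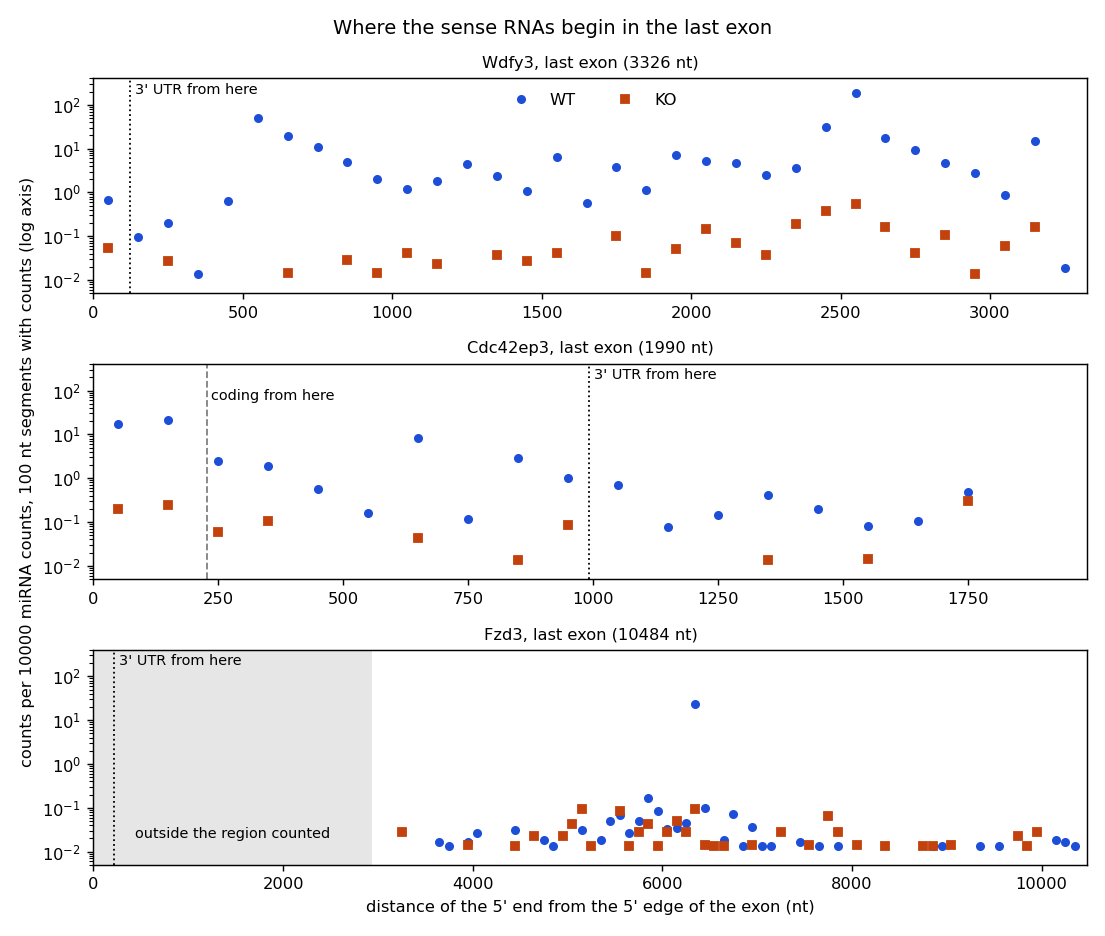
Counts per 10000 miRNA counts (log axis) of sense RNAs by where their 5′ end lies in the last exon, in segments of 100 nt with counts, as means of 3 WT (blue circles) and 3 KO (orange squares) libraries. WT lies above KO along Wdfy3 and most of Cdc42ep3, whereas at Fzd3 a single segment stands out and the others overlap with KO.

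The leading 5′ end of Wdfy3, at chr5:101833719, had 2244, 2304 and 2286 counts in WT and 8, 1 and 7 in KO. Per 10000 miRNA counts this was 125, 118 and 92.9 in WT (112 ± 16.7, n = 3), 481-fold above KO, and replicate 3 was the lowest WT library. Of its counts, 45.6% were of 31 nt, and the place of 32 nt there had 2772 WT and 8 KO counts. The next end lay 4 nt downstream, at chr5:101833715, with 624, 795 and 740 counts in WT and 2, 3 and 4 in KO, a 232-fold difference. The third, at chr5:101835683, is that of Wdfy3 RNA 2 and begins with C. It had 579, 559 and 1002 counts in WT and none in KO, at least 704-fold higher in WT against 3 counts over the KO libraries. The ratio was smaller at other RNAs of Wdfy3. Among the places highest in KO, the 28 nt RNA at chr5:101833807-101833834 had 17, 16 and 26 counts in WT and 2, 1 and 3 in KO, a 10.2-fold difference, and the 29 nt RNA at chr5:101833679-101833707 had 5, 22 and 19 in WT and 4, 1 and 1 in KO, a 7.77-fold difference. These were picked for their KO level, which by itself lowers the ratio. The leading 5′ ends of each locus were picked for their WT level, which by itself raises it.

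The leading 5′ end of Cdc42ep3, at chr17:79335651 in the 5′ UTR, had 187, 165 and 318 counts in WT and 6, 0 and 4 in KO, a 75.6-fold difference. RNAs of 30 nt, the form shown as Cdc42ep3 RNA 1, made up 67.6% of them. The second end, at chr17:79335079 in the coding sequence, had 112, 67 and 198 counts in WT and none in KO, at least 123-fold higher in WT against 3 counts over the KO libraries. Here 73.2% of counts were of 33 nt, longer than Cdc42ep3 RNA 2, which starts at the same base. The place of 29 nt at chr17:79335576-79335604 had 59, 78 and 84 counts in WT and 2, 2 and 0 in KO, a 48.1-fold difference.

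The highest KO place of Cdc42ep3 was of another kind. An RNA of 21 nt at chr17:79333990-79334010, in the 3′ UTR, had 6, 13 and 11 counts in WT against 5, 6 and 7 in KO. Its levels of 0.213, 0.410 and 0.287 in KO and 0.334, 0.663 and 0.447 in WT overlapped (0.303 ± 0.0993 and 0.481 ± 0.167, n = 3 each). It made up 18 of the 73 KO counts of the locus and 18 of the 20 KO counts in the 3′ UTR.

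At Fzd3 the result was that of 1 RNA. The 5′ end at chr14:65196580 had 417, 503 and 520 counts in WT and 2, 1 and 3 in KO, a 253-fold difference, and 99.9% of its counts were of 29 nt. Per 10000 miRNA counts the 29 nt RNA stood at 23.1, 25.7 and 21.1 in WT (23.3 ± 2.29) and 0.0852, 0.0683 and 0.123 in KO (0.0922 ± 0.0281). The deposited table lists 5 entries for this place, and 1 of them took 99.9% of its counts. Without this 5′ end the locus was at 1.44 ± 0.155 in WT and 0.911 ± 0.380 in KO, 1.58-fold higher in WT (log2 ratio -0.66), and 29-32 nt made up 20.2% of 25-32 nt counts in WT and 11.5% in KO. After it, no 3′ UTR place of Fzd3 had more than 4 counts in WT. Without their leading ends, Wdfy3 was still 119-fold and Cdc42ep3 46.8-fold higher in WT.

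Of the 1898 places with counts, 1698 had counts in WT alone, 83 in KO alone and 117 in both. Over the whole table, whose WT libraries hold 15042086 counts against 4567796 in KO, 51.8% of the 1552853 places with counts had them in WT alone and 17.4% in KO alone. The share seen in WT alone was 91.9% at Wdfy3 and 90.7% at Cdc42ep3, but 57.5% at Fzd3, where 46 of 120 places (38.3%) had counts in KO alone. The rule used this contrast, so nothing is read from these shares, and 678 of the places rest on a single count.

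Adjacent RNAs cut in series from a precursor would place the 5′ end of one directly after the 3′ end of another. At Wdfy3 the distance of 1 nt between a 3′ end and a downstream 5′ end had 1836 pairs of WT counts, against 661 to 1680 at each other distance up to 40 nt, the highest of these at 2 nt. It was the most frequent distance in WT replicates 1 and 2 (535 and 561 pairs) and the second in replicate 3 (656 pairs, against 666 at 2 nt). At Cdc42ep3 it had 221 pairs and ranked 29th of the 40 distances, the most frequent being 8 nt with 575. A few abundant RNAs weigh on such pair counts, and Fzd3, with 1 leading end, gave 1 pair at 1 nt. Pairs of opposite-strand RNAs whose 5′ ends overlap by 10 nt, the mark of the ping-pong cycle, numbered 74 at Wdfy3 in WT, against 21 to 98 at each other overlap up to 30 nt, with a median of 38.0 and the highest at 29 nt. An overlap of 10 nt was the second most frequent in each WT library, with 20, 19 and 24 pairs against medians of 10, 7 and 13. There were 0 such pairs at Cdc42ep3 and Fzd3, which had 11 and 15 WT counts on the opposite strand, against 180 at Wdfy3.

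**Figure D5:**
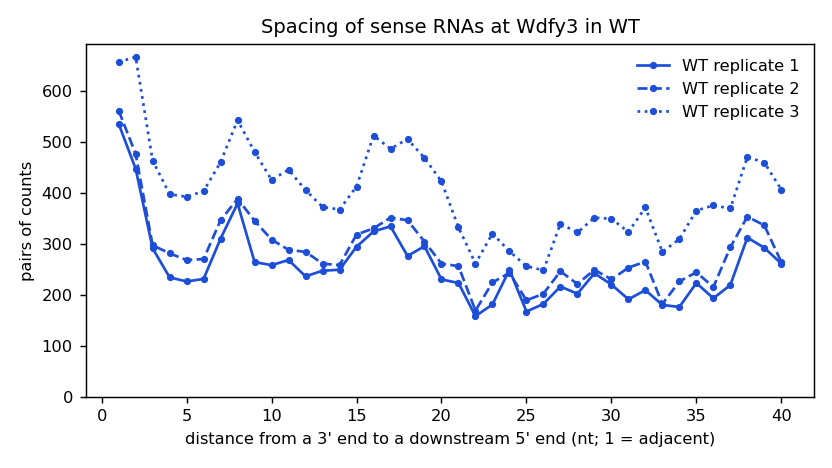
Pairs of WT counts at Wdfy3 by the distance from the 3′ end of one sense RNA to the 5′ end of another downstream, by library. Adjacent ends (1 nt) and 2 nt are the 2 most frequent distances in each library, at 535, 561 and 656 pairs for 1 nt.

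Some miRNAs known from other testis cells also differed between the genotypes, not all in the same direction. The summed level of 7 miRNAs known from peritubular, endothelial, blood and Sertoli cells was 250.5 to 291 per 10000 miRNA counts in KO and 304 to 405 in WT, without overlap. The peritubular miR-143-3p and miR-145a-5p had more counts than any other member of this sum in each library. None of the 7 was at 0 in any library. The erythroid miR-451a was at 0.287 to 0.478 in KO and 0.723 to 0.969 in WT, the peritubular miR-143-3p at 71.1 to 77.4 and 102 to 126, and the leukocyte miR-223-3p higher in KO, at 8.82 to 9.22 against 6.30 to 8.37. The other peritubular miRNA, miR-145a-5p, overlapped, at 72.6 to 120.3 in KO and 96.3 to 169 in WT. So did the Sertoli miR-202-5p, at 15.7 to 20.8 and 16.8 to 21.5. The endothelial miR-126a-3p (61.2 to 68.4 and 67.2 to 72.3) and the leukocyte miR-142a-3p (7.17 to 9.33 and 6.06 to 8.86) overlapped too. The part of these cells in the levels at the 3 loci was not tested.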

How the data were processed

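The authors deposited 2 tables of raw read counts, 1 of small RNAs (45932 entries) and 1 of piRNAs (9924085 entries named by position, strand and cluster). Per the file headers, both were counted with featureCounts 1.5.0-p2. The submitters' processing notes also name cutadapt, DESeq2 and build mm9; the aligner was not given in the sources used here, nor how reads with several matches were counted. Taken as the leftmost base in GRCm38, the deposited positions put U first in 84.3%, 95.2% and 99.2% of counts at Wdfy3, Cdc42ep3 and Fzd3, against at most 49.3% at the 2 bases on either side, so GRCm38 annotation (GENCODE M21) was used. RNA length was the indexed length minus 20 nt, read lengths not being in the tables. Entries of the same position, strand and length were summed, because how reads were shared among them is unknown. Strand matching of reads was likewise not given. Of the counts summed, the top entry held 49.1% at the 31 nt place of chr5:101835683 (28 entries). It held 60.7% at Cdc42ep3 RNA 1 (18 entries) and 99.9% at the Fzd3 RNA (5 entries).

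Counts were scaled to 10000 mature miRNA counts (1900 entries). The loci are the named cluster of Wdfy3 and the windows of Cdc42ep3 and Fzd3, and were described without tests. Places and 100 kb windows of the whole table were tested in edgeR 4.0.16 (R 4.3.3, quasi-likelihood, two-sided). Library size was the miRNA total, with filterByExpr minimum 10 and total 15, Benjamini-Hochberg adjustment and threshold 0.05. The fit of places was checked on simulated counts in which few places were changed, unlike these data. The p-values of these fits measure only the spread between libraries, which may be technical. Alternatives used DESeq2 1.42.0, other scalings, filters, units and length classes, a replicate block, and each library left out. Leaving out the leading 5′ ends or both replicate 3 libraries, and miRNA TMM factors for places, were chosen after seeing the data. Described first were, per locus, the 4 places highest in WT, the 3 highest in KO and the 2 highest 5′ ends; other ends, segments and places were chosen after their values were seen. Members, lists and comparison windows were chosen with earlier results of these data known. Python 3.11.15, pandas 2.3.3 and numpy 2.4.6 were used. Lower bounds set KO at 3 counts over its libraries and cover counting error only.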

Additional observations from a re-analysis of the deposited data

How the results depend on the processing

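No alternative reversed the sign of the log2 KO over WT ratio at any locus. The loci were chosen as the lowest on this ratio, so nothing is read from the kept sign. This log2 KO over WT ratio of Wdfy3 was -5.52 with scaling to piRNA totals, -7.11 with miRNA TMM factors, -7.05 with only the highest entry of each place and -6.90 without its leading 5′ end. That of Cdc42ep3 was -3.92 with piRNA totals and -6.03 for 25-32 nt only, and that of Fzd3 -2.94 with piRNA totals and -0.66 without its leading 5′ end. Leaving out 1 library at a time gave -7.27 to -7.18 for Wdfy3, -5.78 to -5.48 for Cdc42ep3 and -4.87 to -4.33 for Fzd3.

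The long share depends on the class limits. As 28-32 nt among 24-32 nt it was 97.0% in WT and 70.0% in KO at Wdfy3, 93.1% and 61.6% at Cdc42ep3, and 97.1% and 40.9% at Fzd3. As 30-33 nt among 25-33 nt it was 77.8% and 29%, 65.1% and 35.9%, and 0.638% and 3.75%, so that at Fzd3, whose RNA of 29 nt then counts as short, KO is above WT. Without the leading 5′ ends it was 91.3% and 48.6%, 87.1% and 50%, and 20.2% and 11.5%. Leaving out 1 library gave 93.7% to 93.8% and 51.6% to 55.5%, 88.5% to 89.1% and 55.6% to 58.2%, and 96.3% to 96.5% and 18.6% to 24.6%. With each 5′ end counted once, the minus strand held 91.0% in WT and 87.2% in KO at Wdfy3, 97.7% and 95.1% at Cdc42ep3, and 89.5% and 93.5% at Fzd3. Without the leading ends it held 99.0% and 88.8% at Wdfy3, and 82.1% and 92.9% at Fzd3. Both settings turn the order of the genotypes at Fzd3 (99.0% in WT and 93.8% in KO with all counts).

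Of 60631 places tested, 33126 were called lower and 20049 higher with TMM factors of the piRNA table, and 29599 and 27521 with piRNA totals. At a minimum count of 30, 18467 of 22758 were lower and 3151 higher, and 35 of 35 at the loci were lower. Without a filter, 173918 of 1552853 were lower and 17557 higher, and 392 of 1898 at the loci were lower. The rule that chose the loci used this contrast, so nothing is read from the calls at the loci. By TMM factors of the piRNA table, 233 of 749 windows were lower and 196 higher. Leaving out 1 library gave 50269 to 73467 places lower and 9140 to 12352 higher, of 71213 to 97530 tested. At the loci, the places lower went from 90 of 90 tested (without WT replicate 3) to 141 of 142 (without KO replicate 2). Of 69111 places, DESeq2 called 50468 lower and 8963 higher with miRNA totals, and 49375 and 11629 with its own size factors. In the other settings above, the number of places tested moved along with the number called. The cause of these shifts was not tested. The replicate numbers are not stated to pair libraries, and same-numbered libraries deviated with correlations of 0.00583, 0.0409 and 0.0649. With a replicate block 51018 of 69111 places were lower and 10148 higher, and 86 of 86 at the loci were lower. Of 750 windows, 478 were then lower and 18 higher. The KO shares at the loci rest on 171, 73 and 67 counts, which limits their precision.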
